A study of Mus musculus with 8 samples.

Results

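The nuclear factor I family comprises the 4 mouse genes Nfia, Nfib, Nfic and Nfix, which were found by their symbols among the 22691 genes of a read count table. All 4 symbols had exactly 1 row. The table covers 8 RNA-seq libraries of small cell lung cancer (SCLC) cells, a neuroendocrine lung cancer, grown from primary mouse lung tumors on a mixed FVB/n and 129/Ola background. Every library shares the labelled genotype, which includes the invCAG-Mycl-Luc allele, a construct for conditional expression of the oncogene Mycl with luciferase, and Rb1-/-, the loss of a tumor suppressor. In 4 libraries the cells carried an empty vector and in 4 they overexpressed mouse Nfib. The descriptions name the line behind each pair of libraries: Lmyc1 for pair 1, Lmyc3 for pairs 2 and 3, and Lmyc5 for pair 4. They call pairs 1 and 2 old and pairs 3 and 4 new, words that the labels do not explain. Neither the promoter nor the length of the introduced Nfib is given by the labels, and neither is it said whether a line is 1 clone.

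Nuclear factor I proteins are transcription factors that bind DNA as dimers of the same or of different members. A conserved region near the start of each protein makes the contact with DNA, and the remainder, which differs more between members, activates or represses transcription. They are known for work in brain, muscle, tooth and lung development. Nfib is needed for the lung to mature before birth and is amplified in some SCLC. Because members can pair with one another, the make-up of the family in a cell, and not only the level of one gene, is of interest.

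The members are similar enough in sequence that their reads could in principle be confused, so the part of their coding exon 2 that holds the longest exact matches to Nfib was compared first. This exon encodes much of the DNA-binding region. The stretches below run 5′ to 3′ along each transcript and come from the GENCODE M21 transcripts (GRCm38). They lie at chr4:82498578-82498709 (minus strand) for Nfib, chr4:97783142-97783273 (plus strand) for Nfia, chr10:81420607-81420738 (minus strand) for Nfic and chr8:84772124-84772255 (minus strand) for Nfix. Capitals mark the bases at which a member differs from Nfib.
Nfib: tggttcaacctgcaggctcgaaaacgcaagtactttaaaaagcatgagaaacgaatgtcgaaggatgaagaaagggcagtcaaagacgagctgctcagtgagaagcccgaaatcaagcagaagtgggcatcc
Nfia: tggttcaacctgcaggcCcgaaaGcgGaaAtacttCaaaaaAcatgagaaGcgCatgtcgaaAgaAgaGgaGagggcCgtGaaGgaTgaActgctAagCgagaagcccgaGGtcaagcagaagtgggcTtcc
Nfic: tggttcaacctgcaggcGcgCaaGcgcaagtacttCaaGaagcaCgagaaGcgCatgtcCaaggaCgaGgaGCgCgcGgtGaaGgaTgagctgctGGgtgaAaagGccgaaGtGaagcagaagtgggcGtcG
Nfix: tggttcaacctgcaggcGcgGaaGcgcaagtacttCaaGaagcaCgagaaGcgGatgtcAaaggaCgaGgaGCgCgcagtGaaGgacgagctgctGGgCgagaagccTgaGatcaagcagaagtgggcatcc
Over these 132 bases Nfia differed from Nfib at 22, Nfic at 26 and Nfix at 21, an identity of 83.3%, 80.3% and 84.1%. The differences are spread along the stretch. The longest run of identical coding bases was 17 between Nfib and Nfia, 17 between Nfib and Nfic and 21 between Nfib and Nfix. Over whole protein-coding transcripts, none of the 9605 distinct 50-base windows of Nfib occurred in another member. The closest windows had 6 mismatches to Nfia, 5 to Nfic and 5 to Nfix. Read length is not given in the sources used here.

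The depth ranged from 21815264 to 29934021 counts. A count of 0 allows up to 3 counts, or between 0.10 and 0.138 counts-per-million (CPM). CPM is scaled by total counts and TMM factors, and its intervals and limits hold for counting error alone, because PCR copies cannot be recognised without molecular identifiers. The 7 neuroendocrine markers summed to between 2667 and 4568 CPM in empty vector and between 1863 and 4396 CPM in Nfib libraries, on total counts. Markers of fibroblasts, leukocytes, endothelium, and alveolar and airway cells summed to at most 12.7, 2.54, 6.90 and 11.8 CPM in any library. The leukocyte marker Ptprc had a count of 0 in 7 of the libraries, and Cd3e had no row. The endothelial maximum came from Kdr, in the Nfib libraries of pairs 2 and 3, and its part in the results below was not tested. In bulk samples such as these, fewer cells of a type and less RNA per cell cannot be told apart.

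Nfib (ENSMUSG00000008575, chromosome 4, 82290173 to 82705750, GRCm38, minus strand), the member that was introduced, was present in all empty vector libraries. Its level there was 71.9, 399.6, 163 and 486 CPM in pairs 1 to 4, a 6.77-fold range between Lmyc1, the lowest, and Lmyc5, the highest. With overexpression it was 1280, 4675, 2929 and 3584 CPM. The groups did not overlap, which 0.291% of 13380 tested genes showed in the same direction. The difference between the 2 libraries of a pair was 1208, 4276, 2766 and 3098 CPM, and the fold was 17.8, 11.7, 18 and 7.37. Pair 4, with the highest empty vector level, had the smallest fold, and pair 1, with the lowest, had the smallest difference. The fold is a ratio to the empty vector level, so the 2 are not independent. With overexpression the range between cultures was 3.65-fold, for the endogenous gene and the introduced copy together. It is thus not the same quantity as the 6.77-fold range with empty vector. Ordered by CPM per kb of merged exon among 22423 genes, Nfib held rank 7945, 2054, 4987 and 1557 in the empty vector libraries and 387, 61, 97 and 64 in the Nfib libraries.

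In the edgeR quasi-likelihood test without pairing, Nfib had a log2 fold change of 3.48 ± 0.68 (SE) and a Benjamini-Hochberg adjusted p of 1, and the test called 0 of 13380 genes, 0% in each direction, with 83 genes at an unadjusted p under 0.05. With the replicate block the value was 3.69 ± 0.25 (adjusted p of 0.0657, edgeR), again with 0 genes called and 2012 at an unadjusted p under 0.05. DESeq2 with the replicate block gave 3.68 ± 0.21 (adjusted p of 1.76e-64) and called 543 genes (4.06% of those tested, with 1.86% higher and 2.20% lower). Of the other tests, edgeR's bias-adjusted form with the block called 0.329% of genes, with 0.224% higher and 0.105% lower. DESeq2 without a block and limma voom with the block each called 0.0224%, all higher. Paired DESeq2 with total counts called 3.92%, with 2.42% higher and 1.5% lower. With the Lmyc3 pairs summed and the line as the block, edgeR called 0 genes higher and 0 lower. Nfib was at 3.61 ± 0.28 in that edgeR fit (adjusted p of 0.119). The words rose and fell are kept below for genes with an adjusted p under 0.05 in paired DESeq2. Of the 4 members, Nfib rose, as its introduction fixes, and none of the other 3 passed. Counts per gene do not separate the endogenous gene from the introduced copy, so what happened to endogenous Nfib was not measured.

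**Figure D1:**
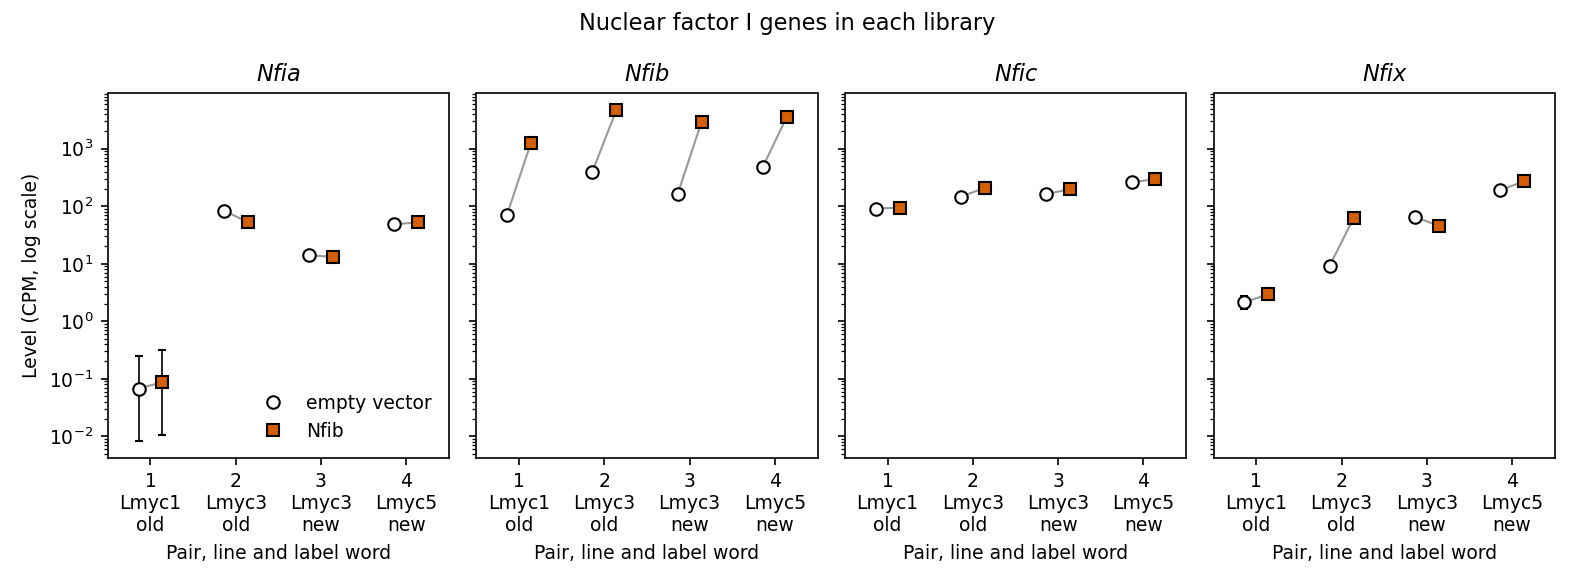
Level of each nuclear factor I gene in every library, in CPM on a log axis, by pair. Circles are empty vector and squares are Nfib libraries, a grey line joins the 2 libraries of a pair, and bars are 95% Poisson intervals, mostly smaller than the symbols. Nfib libraries sit far above their partners for Nfib itself, Nfia differs most between cultures and is under the counting limit in Lmyc1, and Nfix differs most within a pair, after Nfib, in pair 2.

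Nfic (ENSMUSG00000055053, chromosome 10, 81396186 to 81431005, minus strand), which is known for its role in tooth root formation, was the most even member. It stood at 91.3, 147, 162 and 262 CPM in the empty vector libraries of pairs 1 to 4 and at 94.3, 208, 200.1 and 296 CPM in their Nfib partners. The groups overlapped, because the differences between cultures exceeded those within pairs. Within pairs the fold was 1.03 (95% counting interval 0.976 to 1.09), 1.42 (1.35 to 1.48), 1.24 (1.19 to 1.29) and 1.13 (1.09 to 1.17). Nfic was thus higher with Nfib in all 4 pairs, as were 12.8% of tested genes, and in pair 1 the difference lay within counting error. The paired DESeq2 log2 fold change was 0.25 ± 0.10 (SE, 95% interval 0.05 to 0.45, adjusted p of 0.158), and the paired edgeR value was 0.26 ± 0.08 (adjusted p of 0.262). Scaling by total counts in the paired DESeq2 test brought it to 0.29 ± 0.10 (adjusted p of 0.0698). Without a block edgeR gave 0.27 ± 0.40 (adjusted p of 1).

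Nfix (ENSMUSG00000001911, chromosome 8, 84699876 to 84800344, minus strand), known from neural stem cells and fetal muscle, had the least uniform within-pair ratios. Its level was 2.13, 9.16, 65.1 and 190.1 CPM in the empty vector libraries of pairs 1 to 4, an 89.1-fold range. In the Nfib libraries it was 2.96, 62.1, 45.9 and 272 CPM. Lmyc1 was low and Lmyc5 high in both arms, so the groups overlapped. In pair 2 Nfix was 6.78-fold higher with Nfib (95% counting interval 5.83 to 7.92), a change exceeded by 0.448% of tested genes in that pair. In pair 4 it was 1.43-fold higher (1.37 to 1.48) and in pair 1 1.39-fold (0.97 to 1.99), which is within counting error. In pair 3 it was 1.42-fold lower (1.31 to 1.53). Pairs 2 and 3 carry the same line name and moved in opposite directions.

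Over the 4 pairs the log2 fold change of Nfix was 0.76 ± 0.63 (SE, 95% interval -0.47 to 1.99, adjusted p of 0.688) in the paired DESeq2 test and 0.76 ± 0.54 (adjusted p of 0.551) in the paired edgeR test. Without a block edgeR gave 0.52 ± 1.46 (adjusted p of 1). Without pair 2 the paired DESeq2 value was 0.13 ± 0.22 (adjusted p of 1), so pair 2 carries most of the mean. When the Lmyc3 pairs were summed and the line was the block, edgeR gave 0.46 ± 0.06 (adjusted p of 0.138). The unadjusted p of that edgeR fit was 0.000758 for 3 lines. Summing merged the opposite moves of pairs 2 and 3, so this SE and these p-values leave out their disagreement.

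Nfia (ENSMUSG00000028565, chromosome 4, 97772734 to 98118874, plus strand), a driver of astrocyte formation in the nervous system, was nearly absent from one line. Lmyc1 had 2 counts in the empty vector and 2 in the Nfib library, below the limit that a count of 0 allows, and no fold is given for pair 1. The other empty vector libraries stood at 84.1, 14.1 and 48.9 CPM in pairs 2 to 4, and their Nfib partners at 53.2, 13.1 and 52.2 CPM. In pair 2 Nfia was 1.58-fold lower with Nfib (95% counting interval 1.47 to 1.70), while pairs 3 and 4, at 0.931-fold (0.799 to 1.09) and 1.07-fold (0.985 to 1.16), differed by less than counting error. The paired DESeq2 log2 fold change was -0.22 ± 0.21 (SE, 95% interval -0.63 to 0.19, adjusted p of 0.751), and the paired edgeR value was -0.22 ± 0.16 (adjusted p of 0.556). Without a block edgeR gave -0.31 ± 1.69 (adjusted p of 1). The direction rested on pair 2, since without it the edgeR value was 0.06 ± 2.17 and the paired DESeq2 value 0.00 ± 0.23 (adjusted p of 1 in both).

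**Figure D2:**
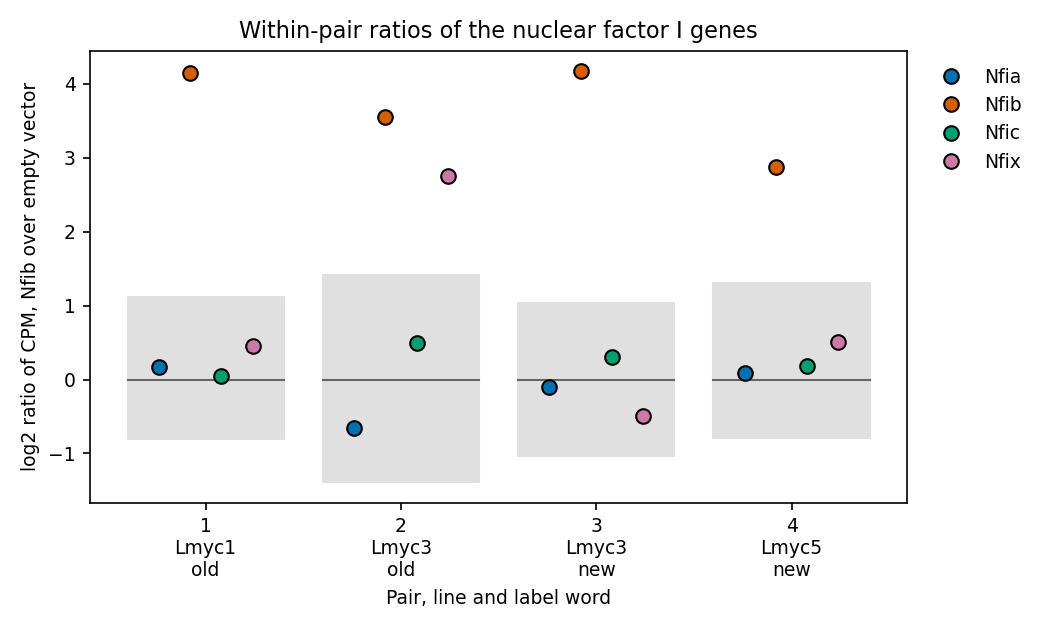
Within-pair log2 ratio of CPM, Nfib over empty vector, for each member by pair. The grey box spans the central 95% of 13380 tested genes in that pair and the line is their median. Nfib lies above the box in every pair, and Nfix lies above it in pair 2 (2.75, against an upper edge of 1.41), while the remaining points lie inside. The Nfia point of pair 1 rests on 2 counts in each library.

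Set side by side within pairs, the members other than Nfib had unlike ratios. Each ratio sets 1 library against 1, so a difference between cultures cannot be told from variation between libraries. Of the ratios that follow, only that of Nfix in pair 2 lay outside the central 95% of tested genes. In pair 2 the log2 ratios of Nfia, Nfic and Nfix were -0.66, 0.50 and 2.75. In pair 3, the other Lmyc3 culture, they were -0.10, 0.31 and -0.50. In pair 4 they were 0.09, 0.18 and 0.51. Whether the response differed between the old and the new pairs was tested as an interaction in edgeR with the block. It called 0 of 13380 genes, 0% of those tested, with 405 at an unadjusted p under 0.05. Its log2 value, new minus old, was 0.62 ± 0.22 for Nfia and -1.91 ± 0.79 for Nfix, with an adjusted p of 1 for each. For Nfib it was -0.33 ± 0.49 and for Nfic -0.03 ± 0.18, also with an adjusted p of 1. Pair 1 had 2 Nfia counts in each library, so the old side for Nfia rested on pair 2. For Nfix the log2 ratios of the old pairs were 0.46 in pair 1 and 2.75 in pair 2. DESeq2 called 7 genes for the interaction, 0.0523% of those tested, and no member was among them.

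The empty vector libraries of the cultures differed in the members, Nfia and Nfix most. The SD of log2 CPM over the 4 empty vector libraries was 4.15 for Nfia, 2.87 for Nfix, 1.27 for Nfib and 0.62 for Nfic, against a median of 0.43 over the tested genes. The SD was larger for Nfia than for 99.4% of tested genes, for Nfix than for 96.4%, for Nfib than for 82.6% and for Nfic than for 64%. The value for Nfia depends on the Lmyc1 library, with 2 counts, and on the prior count of 2. The Lmyc1 library was the lowest of the 4 for every member, as it was for 21.7% of tested genes. Lmyc5 was the highest for Nfib, Nfic and Nfix, as for 25.3% of tested genes, and the old Lmyc3 culture was the highest for Nfia. All neighbours in these orders differed beyond counting error. The narrowest gap was for Nfic, where the new Lmyc3 culture exceeded the old one 1.10-fold (95% counting interval 1.05 to 1.15). Each culture has 1 empty vector library, so these differences carry no replicate error.

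The 2 Lmyc3 cultures, which share a line name, were compared directly. With empty vector, Nfix was 7.10-fold higher in the new culture (95% counting interval 6.12 to 8.28). Nfia was 5.96-fold higher in the old culture (5.33 to 6.67), and Nfib was 2.46-fold higher there (2.37 to 2.55). With Nfib the order of Nfix turned: it was 1.35-fold higher in the old culture (1.25 to 1.47), at 62.1 CPM, a level close to the 65.1 CPM of the new culture with empty vector. Nfia remained 4.05-fold higher in the old culture (3.57 to 4.61), and Nfib was 1.60-fold higher there (1.58 to 1.61). The libraries of the old and new cultures of this line name thus differed in the relative levels of the members. Each comparison sets 1 library against 1.

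Levels of different genes can be set side by side only per length, so each member's counts were divided by its merged exon length (10891 bases for Nfia, 14957 for Nfib, 6630 for Nfic and 7351 for Nfix). On this scale Nfic was the largest member in 3 of the 4 empty vector libraries, with 73.0% of the family total in pair 1, 53.7% in pair 3 and 38.6% in pair 4. In pair 2 Nfib led with 46.2% and Nfic held 38.3%. The share of Nfib in the other empty vector libraries was 25.5%, 24% and 31.8% in pairs 1, 3 and 4. Nfix held 1.54%, 2.15%, 19.5% and 25.2% in pairs 1 to 4, and Nfia 0.033%, 13.3%, 2.85% and 4.38%. By share, the main members were thus Nfic and Nfib in Lmyc1, with Nfia added in the old Lmyc3 culture. In the new Lmyc3 culture and in Lmyc5, Nfix was added instead. A low share is not a low level: Nfia was at 48.9 CPM in Lmyc5, 84.1 in old Lmyc3 and 14.1 in new Lmyc3. The family totals there were 102.4, 57.9 and 45.4 CPM per kb. Each culture has 1 empty vector library.

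With Nfib introduced, Nfib was the largest member in every library, at 85.4%, 87.5%, 83.9% and 73.5% of the total in pairs 1 to 4. Its mean share went from 31.8 ± 10.1% to 82.6 ± 6.22% (SD, n = 4), a direction that the introduction of the gene fixes, and the summed share of the other members was bound to go down with it. The share of Nfic went from 50.9 ± 16.4% to 12.4 ± 2.46% and that of Nfia from 5.15 ± 5.75% to 0.841 ± 0.701% (SD, n = 4). These shares went down in all 4 pairs. The family total was 3.18- to 6.17-fold higher with Nfib, so a member that changed little was bound to lose share. The exact two-sided sign-flip permutation test gave a p of 0.13, the smallest that 4 pairs allow, and it does not test Nfic or Nfia themselves. Nfix went from 12.1 ± 12.1% to 4.19 ± 4.86% (SD, n = 4, exact sign-flip permutation p of 0.25). In pair 2 its share was 2.15% with empty vector and 2.36% with Nfib. Lmyc5 kept the largest share outside Nfib, with 11.3% Nfix and 13.7% Nfic. The length of the introduced copy is unknown, and with coding length in place of merged exons Nfib held between 35.9% and 58.2% with empty vector and between 82.9% and 92.3% with Nfib, and it exceeded Nfic in pair 4 as well as in pair 2 of the empty vector libraries.

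**Figure D3:**
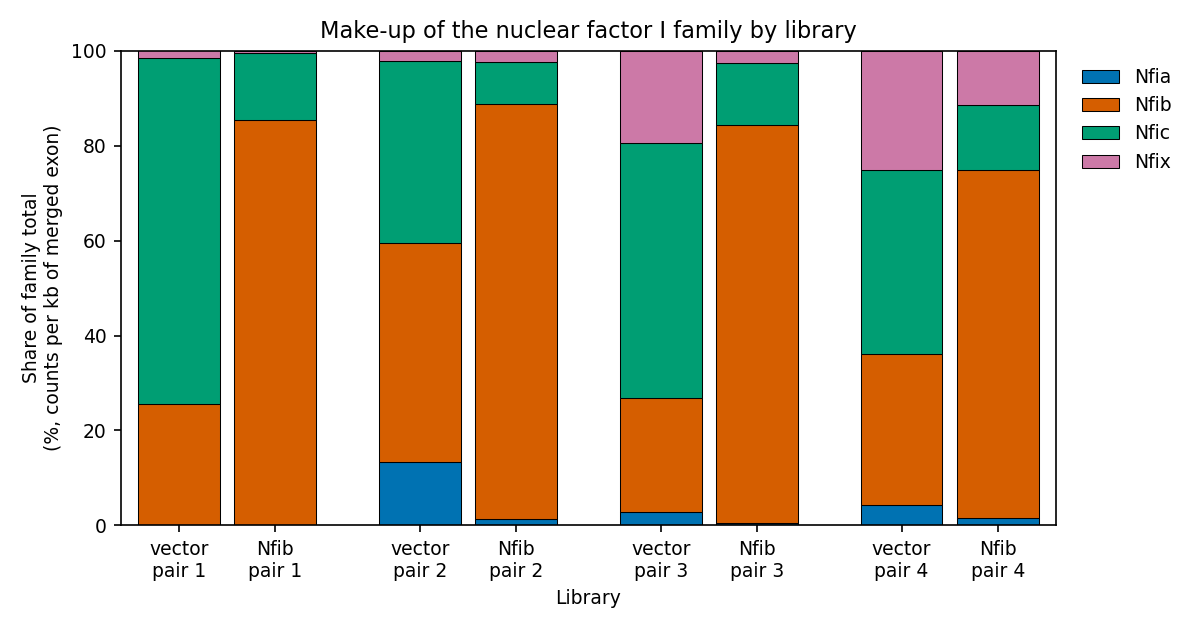
Share of each member in the family total by library, in percent of counts per kb of merged exon, as stacked bars for the empty vector (vector) and Nfib libraries of each pair. Nfic is the largest part in the empty vector libraries of pairs 1, 3 and 4, and Nfib is the largest part, 73.5% to 87.5%, in all Nfib libraries.

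The family as a whole was 5.31-, 6.17-, 5.14- and 3.18-fold higher with Nfib in pairs 1 to 4. Its summed level was 18.9, 57.9, 45.4 and 102.4 CPM per kb with empty vector and 100.2, 357, 233 and 326 CPM per kb with Nfib. A single Nfib library, that of pair 1, had a summed level below the highest empty vector library, that of pair 4. The sum of Nfia, Nfic and Nfix was 14.1, 31.2, 34.5 and 69.9 CPM per kb with empty vector and 14.6, 44.8, 37.6 and 86.4 CPM per kb with Nfib. It was 1.04-, 1.44-, 1.09- and 1.24-fold higher within pairs, a mean log2 ratio of 0.25 ± 0.21 (SD, n = 4; exact two-sided sign-flip permutation p of 0.13, the smallest possible). In pair 2 the change was made up of 9.23 CPM per kb from Nfic, 7.20 from Nfix and -2.84 from Nfia. In pair 4 Nfix contributed 11.1 and Nfic 5.12 CPM per kb.

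Among these 3 paralogs without Nfib, the mixture changed most in pair 2. Nfia went from 24.8% to 10.9% of their sum there and Nfix from 4% to 18.9%, while Nfic stayed at 71.2% and 70.2%. In pair 3 Nfix went from 25.6% to 16.6% and Nfic from 70.6% to 80.2%. In pair 1 Nfic made up 97.9% and 97.2%. In pair 4 Nfix held 37.0% and 42.8%.

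Genes of the table that overlap a member were examined because the strand setting of the counting is unknown, and reads from overlapping genes on opposite strands then cannot be told apart. The antisense gene Gm11266 (chromosome 4, 82508016 to 82547292, plus strand), which lies within the span of Nfib, had 1, 73, 0 and 73 counts in the empty vector libraries of pairs 1 to 4. It had 1, 134, 2 and 149 counts in the Nfib libraries. It was thus seen in the 2 cultures with the most Nfib under empty vector and was at or below the limit that a count of 0 allows in the others. In pair 2 it went from 3.45 to 6.16 CPM and in pair 4 from 3.29 to 5.81 CPM. The paired DESeq2 log2 fold change was 0.93 ± 0.53 (SE, adjusted p of 0.444). Per 1000 Nfib counts, Gm11266 had 8.63 and 6.76 counts with empty vector and 1.32 and 1.62 with Nfib in pairs 2 and 4. The other overlapping genes were E130114P18Rik for Nfia, Gm11267 for Nfib, Gm16104 for Nfic, and Lyl1 and G430095P16Rik for Nfix. None of them exceeded 31 counts in a library. G430095P16Rik, on the strand opposite to Nfix, had 17 counts in the empty vector and 7 in the Nfib library of pair 2, where Nfix had 194 and 1352.

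Genes whose profile over the 8 libraries was nearest to that of a member were named by the root mean square difference between log2 CPM profiles after each was centred on its own mean. The libraries come in pairs from 4 cultures, so likeness mostly reflects differences between cultures, except for Nfib. The genes were picked for likeness over these same libraries, so the patterns they share with a member are no separate result. Nearest to Nfib were Kcnq3, a subunit of a voltage-gated potassium channel (0.65 on the log2 scale, where the profile of Nfib itself varied by 2.06), Pm20d2 (0.91) and Necab2, a neuronal calcium-binding protein (0.99). Kcnq3 stood at 0.237, 2.60, 0.259 and 1.44 CPM in the empty vector libraries of pairs 1 to 4 and at 2.13, 14.8, 7.54 and 5.77 CPM in the Nfib libraries. It was highest in the cultures of pairs 2 and 4 with empty vector, as Nfib was, a likeness that its selection favours. Necab2 departed in pair 3, at 6.12 CPM with Nfib against 43.8 CPM in pair 2 and 40.9 CPM in pair 4.

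Nearest to Nfia were Cdk14, a cyclin-dependent kinase (0.48, where Nfia varied by 3.5), Igf2, an insulin-like growth factor (0.60), and Iqsec3, an exchange factor at inhibitory synapses (0.68). All 3 were at 0.174 CPM or below in both Lmyc1 libraries, like Nfia. Igf2 was at 32.6, 5.48 and 28.4 CPM in the empty vector libraries of pairs 2 to 4 and at 11.6, 3.75 and 12.3 CPM in the Nfib libraries. Nearest to Nfix were Ifit2, an interferon-induced gene (0.78, where Nfix varied by 2.45), the T-box factor Tbx15 (0.86) and Tspyl5 (0.96). Ifit2 had 0.508, 4.49, 40.7 and 46.8 CPM with empty vector and 0.696, 10.2, 33.3 and 43.7 CPM with Nfib in pairs 1 to 4. Nearest to Nfic were Gm14420 (0.14, where Nfic varied by 0.59), the replication licensing factor Cdt1 (0.15) and the collagen receptor Ddr1 (0.16). Cdt1 had 38.4, 51.4, 72.7 and 107 CPM with empty vector and 41.3, 69.0, 89.2 and 114 CPM with Nfib in pairs 1 to 4.

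**Figure D4:**
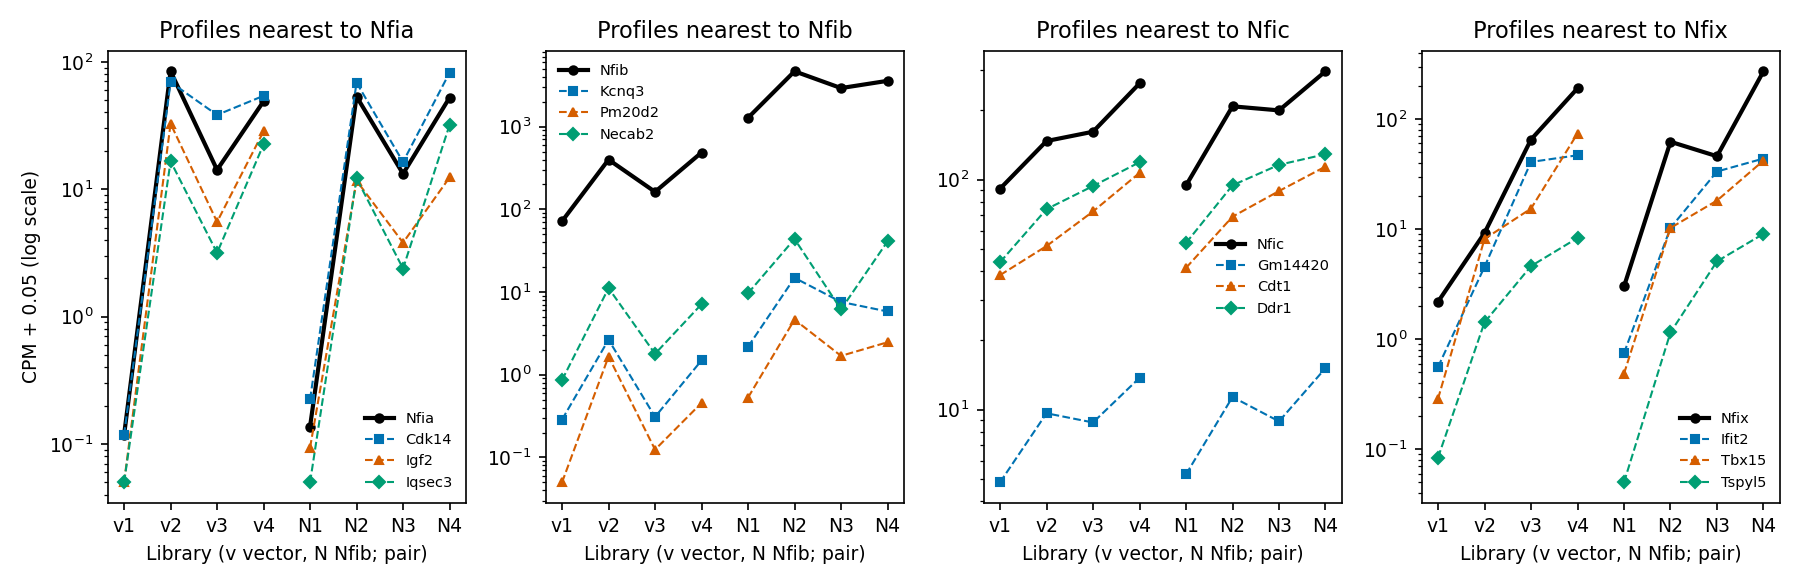
CPM plus 0.05, on a log axis, of each member (black) and its 3 nearest genes in the 4 empty vector (v) and 4 Nfib (N) libraries, numbered by pair. Lines only guide the eye within a group. The genes nearest to Nfia and Nfix follow the cultures and are low in both Lmyc1 libraries, while those nearest to Nfib are higher with Nfib in every pair. The genes were picked for likeness to the member over these libraries, so these patterns are no separate result.

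Genes described elsewhere as regulated by nuclear factor I proteins were read as a list of 21, of which 20 had a row and 12 had enough counts to be tested. For Insc, 1 of the 12, DESeq2 gave no adjusted p. In the paired DESeq2 test 1 of the 12 rose and 1 fell, against 1.86% and 2.20% of all tested genes. The median log2 fold change of the 12 was 0.12, beside -0.01 over all tested genes. The edgeR tests with and without the block called none of the 12. The astrocyte genes of the list were at unlike levels. Gfap, the astrocyte filament, stayed at or below 0.117 CPM, and the glutamate transporter Slc1a3 had counts in 1 library alone. The water channel gene Aqp4 had 0.948, 11.2, 4.30 and 0.18 CPM in the empty vector libraries of pairs 1 to 4 and 2.0, 37.5, 3.84 and 0.195 CPM in the Nfib libraries. It was highest in the old Lmyc3 culture in both arms, and its paired DESeq2 log2 fold change was 0.78 ± 0.43 (SE, adjusted p of 0.408). Of the lung genes on the list, Scgb1a1 of airway club cells was at or below 0.203 CPM. Sftpc of alveolar cells was 10.3 CPM in the empty vector library of pair 2 and at most 1.25 CPM elsewhere.

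Tgfb2, which encodes a transforming growth factor, rose. It went from 0.102 to 0.348 CPM in pair 1, from 9.40 to 37.7 in pair 2, from 0.222 to 0.948 in pair 3 and from 4.28 to 6.94 in pair 4. Pairs 1 and 3 thus rest on few counts. The empty vector value of pair 1 is about the limit that a count of 0 allows there, 0.10 CPM. The log2 fold change of Tgfb2 was 1.54 ± 0.39 (SE, DESeq2 with the block, adjusted p of 0.00457). Of the 4 paired DESeq2 fits with a pair removed it passed 2. Its adjusted p there was 0.351 without pair 2 and 0.0557 without pair 3. It did not pass in the paired edgeR test (adjusted p of 0.172). Nor did it in edgeR with the Lmyc3 pairs summed and the line as the block (adjusted p of 0.241). Aldh1l1, a folate enzyme used as an astrocyte marker, fell by 1.46 ± 0.47 (DESeq2 adjusted p of 0.0463), with 6.67, 3.78, 0.815 and 4.78 CPM in the empty vector and 3.87, 0.551, 0.474 and 1.64 CPM in the Nfib libraries. It passed none of the 4 fits with a pair removed nor the paired DESeq2 test scaled by total counts (adjusted p of 0.0594). In edgeR with the Lmyc3 pairs summed and the line as the block, its adjusted p was 0.216.

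The 3 most abundant genes of the list did not pass. Ezh2, the polycomb methyltransferase that Nfib is known to repress in the developing forebrain, had a paired DESeq2 log2 fold change of -0.05 ± 0.10 (adjusted p of 0.929), with a mean of 197 CPM over the 8 libraries. The cell adhesion gene Cdh2 was at -0.05 ± 0.12 (adjusted p of 0.948) and the transcription factor Bbx at -0.22 ± 0.10 (adjusted p of 0.235). Sox9, which acts with Nfia in glial cells, had too few counts to be tested. It was at 5.48 CPM with empty vector and 17.3 CPM with Nfib in pair 2, and at or below 1.13 CPM in the other cultures.

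The promoters of the members were searched for the letters that nuclear factor I dimers are known to bind. RefSeq windows (GRCm38.p6, 300 bases around a start site) were at hand for Nfia, Nfic and Nfix, with 4 start sites for Nfix, and not for Nfib. The full palindrome (TTGGC, then any 5 bases, then GCCAA) was found in 12 of 32851 promoter windows (0.0365%) and the shorter site TTGGCA, on either strand, in 14.1% of them. Neither was found in any of the 6 windows of the family. Only these patterns were searched, and TTGGC followed by a base other than A, which some Nfix windows hold, was not counted. The Nfia window lies outside the span of Nfia in the table, so it belongs to another annotated start.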

How the data were processed

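RNA was sequenced from 4 empty vector and 4 Nfib samples. Per the labels' protocols, libraries followed the TruSeq RNA preparation, and the extraction field describes DNA from frozen tumors and not the RNA. The authors deposited whole-number read counts per Ensembl gene, not normalized, with symbols and GRCm38 coordinates. Per the submitters' processing notes, the tools included DESeq2, SAMtools 0.1.19, Bowtie 1.0.0 and TopHat2 2.1. The counting program was not given in the sources used here, nor were its strand setting and its annotation. Group came from the source field and replicate number from the titles, which say Tumor for the Nfib arm. Some labelled items, 1 allele of the genotype among them, are not reported here.

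The primary test was edgeR 4.0.16 (R 4.3.3, quasi-likelihood, original form of the fit) on all 8 libraries without a block, with TMM, edgeR's filter by group (13380 genes) and Benjamini-Hochberg adjustment over all tested genes at 0.05. EdgeR gives no SE, so the SE is the log2 fold change over the square root of F. DESeq2 1.42.0 with the replicate block, an alternative, is used for the words rose and fell. Both libraries of a number carry the same line name. The pairing was checked by correlating deviations from the group means: same-numbered libraries gave 0.908, 0.884, 0.935 and 0.929 and no other combination exceeded 0.0647. Between the 2 Lmyc3 cultures the values were among the lowest. They were -0.482 (empty vector of pair 3, Nfib of pair 2) and -0.534 (empty vector of pair 2, Nfib of pair 3). The shared line name was thus not seen as likeness on this measure. Pairs 2 and 3 share a line name, so the p-values rest on the spread between these 8 samples, part of which may be technical. Within-pair log2 ratios use a prior count of 2. Counting intervals are 95% Poisson for levels and exact binomial for ratios. Of the 22691 genes, 22423 had an exon length in GENCODE M21 (GRCm38). Other alternatives were limma 3.58.1 (voom), edgeR's bias-adjusted form, other scalings, filters and lengths, the Lmyc3 pairs summed, and each pair left out. The fits were tested on simulated data.

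Named genes were the 4 members, genes that overlap them, the 3 nearest profiles of each, and listed genes that passed or were the 3 most abundant. Sox9, Gfap, Slc1a3, Aqp4, Scgb1a1 and Sftpc were chosen after their values were seen. The members and lists were chosen with earlier results of these data known.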

Additional observations from a re-analysis of the deposited data

How the results depend on the processing

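The adjusted p of Nfib passed 0.05 in 5 alternatives that kept all pairs: DESeq2 with the replicate block (log2 fold change 3.68), DESeq2 without a block (3.47), limma voom with the replicate block (3.66), edgeR's bias-adjusted form with the replicate block (3.69) and total counts in the paired DESeq2 test (3.72). Without pairs 1 to 4 in turn it was 3.52, 3.74, 3.52 and 3.95 in paired DESeq2, and from 3.31 to 3.81 in edgeR without a block. In these alternatives the number of genes called higher was 249, 3, 3, 30 and 324, and the number called lower was 294, 0, 0, 14 and 201, against 0 and 0 in the edgeR test without pairing. Leaving out a pair gave 0 higher and 0 lower in edgeR without a block and, in the paired DESeq2 test, 175, 178, 145 and 108 higher and 176, 204, 89 and 143 lower without pairs 1 to 4 in turn. Of the listed genes, 1 was called higher in the paired DESeq2 test and 1 with total counts there, and 0 or 1 without a pair. The number called lower was 1 in the paired DESeq2 test and 0 in the other alternatives run for it. Nfia changed direction without replicate 2, to 0.06 in edgeR and 0.00 in paired DESeq2, and ranged down to -0.56 without replicate 4. No paired fit changed the call of Nfia, Nfic or Nfix, which kept their side of the threshold in all alternatives run. Nfia was too low for the filter of at least 10 counts in each library, which gave it no value. The directions of the 4 shares and of the summed paralogs held in their alternatives, where no p could pass with 4 pairs. The 3 nearest genes were the same for each member under a filter of 1 CPM. Nfia in Lmyc1 had 2 counts a library, too few for a fold, although the empty vector library there was the deepest, at 29934021 counts. Every result rests on 4 pairs from 3 named lines.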
